A study of Rattus norvegicus with 11 samples.

Results

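Desaturases place double bonds in fatty acids and elongases lengthen them by adding carbon units, and 10 genes of these families were followed here in rat retroperitoneal white adipose tissue. They were taken by symbol from the deposited count table, each on 1 row, out of 25275 rows. The members are the polyunsaturated fatty acid desaturases Fads1 and Fads2 and their relative Fads3, the stearoyl-CoA desaturases Scd1 and Scd2, and the elongases Elovl1, Elovl3, Elovl5, Elovl6 and Elovl7. All 10 had at least 1 count, and 8 passed the filter on low counts and were tested. Elovl3 and Elovl6 did not pass it.

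Saturated fatty acids made by fatty acid synthase (Fasn) or taken from food are lengthened and desaturated in the endoplasmic reticulum. Scd1 and Scd2 introduce the first double bond and give oleic and palmitoleic acid, the main monounsaturated acids of stored fat. Fads2 and Fads1 act in turn on the essential polyunsaturated acids, with an elongation by Elovl5 between them, and give arachidonic and eicosapentaenoic acid. Many of these genes are known targets of the SREBP transcription factors, whose release is held back by Insig1, and Scd1 is also a known target of the liver X receptor and of ChREBP.

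The tissue came from 11 wild-type female Wistar rats, 1 library per rat. Western diet was given from 10 weeks of age, for 6 weeks before ovariectomy, and every rat was then treated with degarelix, which blocks the receptor for gonadotropin-releasing hormone. The pumps they carried held vehicle in 6 animals (degarelix only) and follicle-stimulating hormone (FSH, 6 µg/kg/day) in 5 animals (degarelix plus FSH). After 12 days on limited food and 7 on free food, the fat was collected at 19 weeks of age with the animals fasted for 4 h. The question is how FSH alters gene expression of fat once the ovaries are gone and the pituitary's own gonadotropins are suppressed, and every difference below is degarelix plus FSH relative to degarelix only.

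Library totals lay between 13163021 and 23694602 counts, and 3 counts, the limit that a count of 0 allows, correspond to 0.127 to 0.223 CPM. CPM is the usual depth-scaled count, taken over the TMM-scaled library total, and limits of this kind hold for counting error alone. The tissue label was checked against markers. The 6 adipocyte markers (Adipoq, Plin1, Cidec, Fabp4, Lep and Lipe) summed to 35766 to 44807 CPM in the degarelix only rats and to 37320 to 47470 CPM in the FSH rats. The sum hides changes in opposite directions: 3 markers lay above 0 with FSH and 3 below, none past the threshold. Fabp4 had a log2 change of 0.30 ± 0.09 (adjusted p = 0.103 by edgeR) and Lep -0.62 ± 0.18 (adjusted p = 0.0790). The 6 endothelial markers in the table (Cdh5, Tek, Esam, Cldn5, Vwf and Kdr) all lay above 0 with FSH, with a median log2 change of 0.35. Of these, Tek, a receptor of vessel cells, passed the threshold (log2 change 0.44 ± 0.10, adjusted p = 0.0431 by edgeR). Their sum was 1159 to 1537 CPM without FSH and 1328 to 2108 CPM with FSH, and its part in the lower members described here was not tested. The sums of macrophage markers (183 to 414 against 170 to 360 CPM) and of fibroblast markers (2480 to 3212 against 2247 to 3592 CPM) overlapped between the groups. In bulk tissue, fewer cells of a type and less RNA per cell cannot be told apart. One library stood apart. In FSH replicate 3 the 3 Schwann cell markers Sox10, Mbp and Prx, genes of the myelinating cells of nerve, summed to 1846 CPM, against 72.9 to 109.7 CPM in the degarelix only rats and at most 88.0 CPM in the other FSH rats. Each of the 3 was highest in FSH replicate 3, and Prx, a protein of the myelin sheath of peripheral nerve, held 468 CPM there against 9.15 to 17.7 CPM in the other 10 libraries. Group differences of members that rest on this library are given with and without it.

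The 250 bases before the start of the genes on which the results turn are printed here from RefSeq (GRCr8), 9 of the 10 members having an entry. They show the letters that sit upstream of the pair Fads1 and Fads2, of Elovl5, and of the pair Scd1 (named Scd in RefSeq) and Scd2. Capitals mark the CCAAT box (CCAAT, bound by NF-Y, a frequent partner of SREBP; read as ATTGG on the other strand) and the E-box CACGTG. Genes with several transcripts can have other starts, which were not analysed here.
Fads1, chr1:216252442-216252691, plus strand: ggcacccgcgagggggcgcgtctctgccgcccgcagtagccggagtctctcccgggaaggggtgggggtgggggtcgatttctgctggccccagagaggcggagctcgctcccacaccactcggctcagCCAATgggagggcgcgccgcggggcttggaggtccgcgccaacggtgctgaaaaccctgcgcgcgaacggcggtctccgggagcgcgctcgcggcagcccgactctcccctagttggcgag
Fads2, chr1:216172034-216172283, minus strand: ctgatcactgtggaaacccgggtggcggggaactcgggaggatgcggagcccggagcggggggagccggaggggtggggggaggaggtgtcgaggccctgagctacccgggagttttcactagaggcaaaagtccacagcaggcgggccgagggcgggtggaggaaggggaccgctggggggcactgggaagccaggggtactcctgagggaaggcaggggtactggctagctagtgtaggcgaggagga
Elovl5, chr8:87670914-87671163, plus strand: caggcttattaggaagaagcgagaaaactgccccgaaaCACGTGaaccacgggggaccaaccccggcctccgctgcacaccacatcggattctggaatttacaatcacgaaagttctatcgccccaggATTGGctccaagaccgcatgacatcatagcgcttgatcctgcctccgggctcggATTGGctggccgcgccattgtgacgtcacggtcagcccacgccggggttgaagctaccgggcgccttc
Scd1, chr1:253231732-253231981, minus strand: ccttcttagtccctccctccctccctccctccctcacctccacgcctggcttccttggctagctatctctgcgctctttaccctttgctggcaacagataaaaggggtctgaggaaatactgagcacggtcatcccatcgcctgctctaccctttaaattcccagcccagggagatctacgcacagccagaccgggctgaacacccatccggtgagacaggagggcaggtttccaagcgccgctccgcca
Scd2, chr1:253118127-253118376, plus strand: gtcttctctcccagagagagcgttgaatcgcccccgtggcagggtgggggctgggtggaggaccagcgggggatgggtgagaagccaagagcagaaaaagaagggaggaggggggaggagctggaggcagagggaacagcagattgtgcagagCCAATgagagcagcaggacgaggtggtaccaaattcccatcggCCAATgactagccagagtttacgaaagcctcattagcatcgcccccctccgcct

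The Fads1 window holds 1 CCAAT box, 121 bases before the start, and the Fads2 window holds none. The Elovl5 window holds 2, both on the reverse strand, with their first letters 122 and 68 bases before the start, and it is the only 1 of the 9 windows with the E-box, 212 bases before the start. The Scd2 window holds 2 CCAAT boxes, at 97 and 54 bases before the start, and the Scd1 window none. Among all 33469 RefSeq windows of this length, 34.0% hold CCAAT on either strand and 5.59% hold CACGTG. The SREBP-type letters TCACNCCAC, present in 0.974% of all windows, were in none of the 9, which says only that these letters are not in these stretches. None of these marked letters overlap one another. The Fads1 and Fads2 windows share no run longer than 11 bases, and the Scd1 and Scd2 windows none longer than 9, although each pair lies close together on chromosome 1.

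With FSH, Fads1 and Elovl5 fell, to 0.51 and 0.61 of their degarelix only level in the fit, and none of the other 6 tested members passed the threshold. By edgeR's quasi-likelihood test with p-values adjusted over all 12846 genes, 2 of the 8 tested members were lower at an adjusted p under 0.05, against 1.07% of all genes tested. None was higher, against 1.21% of all genes, and 2.27% of genes passed in either direction. At an unadjusted p under 0.05, which 22.6% of all genes reached, 4 members passed, Elovl7 being the 1 that was higher. DESeq2 and limma-voom also called 0 members higher, and DESeq2 gave Elovl7 no adjusted p. The median log2 change of the 8 was -0.26, with 7 below 0, where that of all genes tested was 0.01, with 6216 below 0 and 6630 above.

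**Figure D1:**
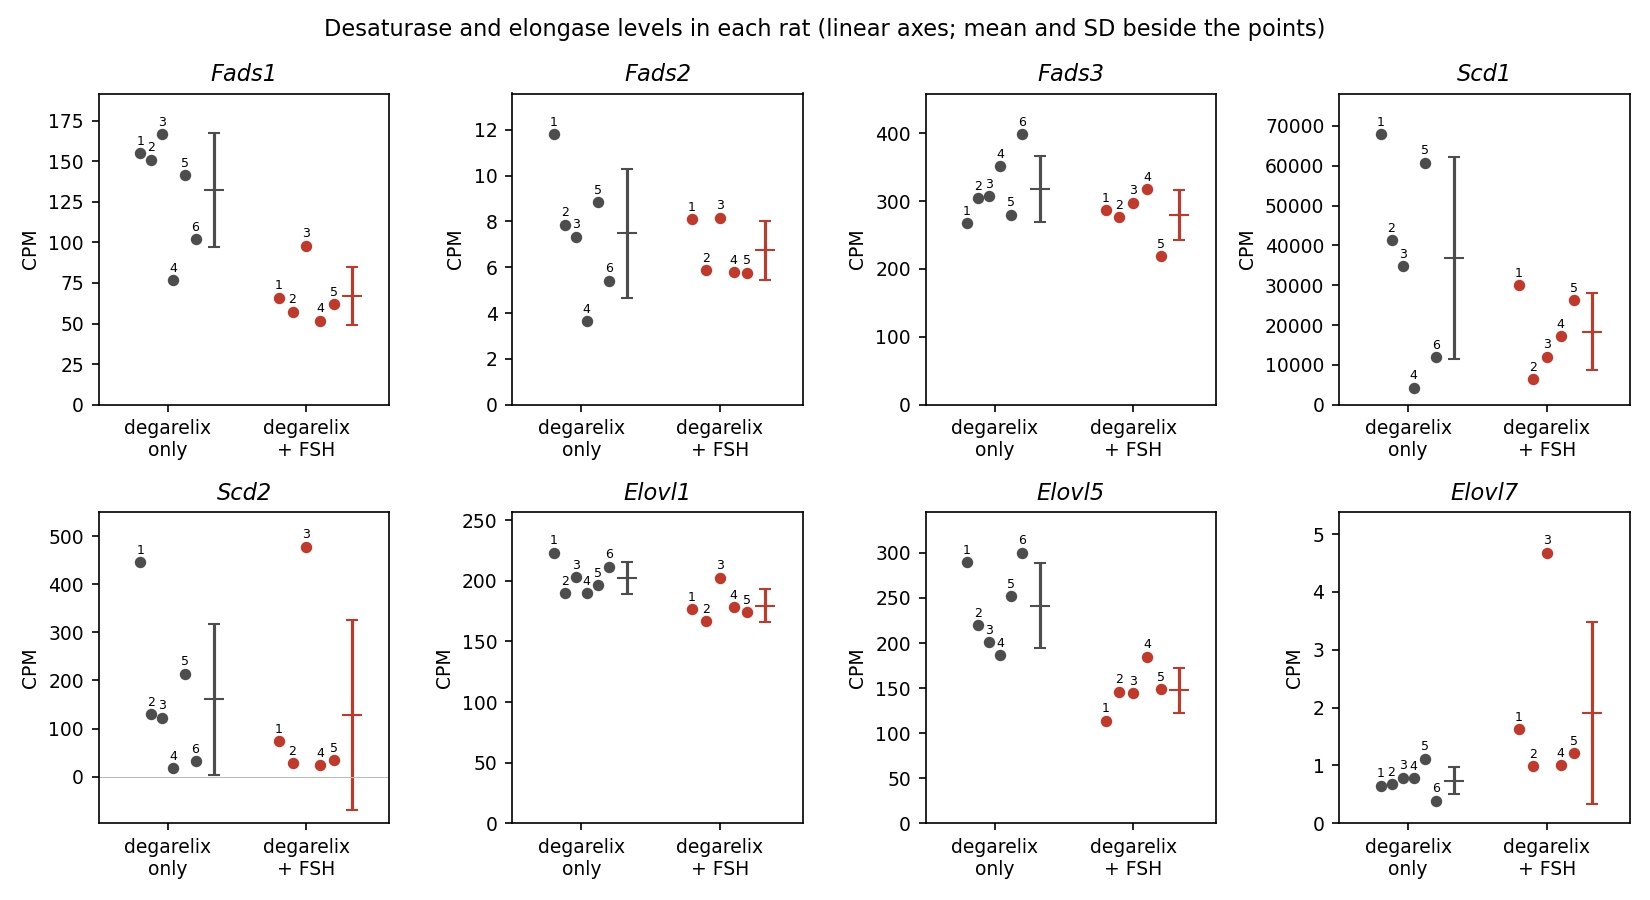
CPM (linear axes from 0, extended below it where an SD bar needs it) of the 8 tested members in each of the 6 degarelix only and 5 degarelix plus FSH rats; numbers are the replicate numbers of the labels, and the bar beside each group is its mean and SD. Elovl5 separates the groups (186 CPM or more against 185 CPM or less), and FSH replicate 3 stands above the other FSH rats for Scd2 and Elovl7.

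Fads1 is the delta-5 desaturase, which makes arachidonic acid from its precursor. Its level was 155.0, 151, 167, 76.8, 141 and 102 CPM in degarelix only replicates 1 to 6, and 65.9, 57.25, 98.0, 51.8 and 61.8 CPM in FSH replicates 1 to 5. The groups met only at their edges: FSH replicate 3, the highest FSH rat, lay above degarelix only replicate 4, the lowest rat without FSH. The mean went from 132 ± 35.01 CPM (SD, n = 6) to 67.0 ± 18.1 CPM (SD, n = 5), a log2 change of -0.98 ± 0.22 (SE; 95% interval -1.46 to -0.51; adjusted p = 0.0430 by edgeR). Without FSH replicate 3, the library rich in Schwann cell markers, the other FSH rats lay at 51.8 to 65.9 CPM, below every degarelix only rat, and the log2 change was -1.16 (adjusted p = 0.0378). The share of all genes that separate the groups without that library was not computed. The call also stood without degarelix only replicate 4 (adjusted p = 0.0145). It ended when any of the other 9 libraries was left out, with adjusted p up to 0.103, while the log2 change stayed between -1.16 and -0.90.

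Fads2, the delta-6 desaturase that starts the same route, was far less covered, with 79 to 219 counts per library. Its level was 11.8, 7.86, 7.33, 3.63, 8.85 and 5.41 CPM without FSH and 8.11, 5.86, 8.17, 5.77 and 5.77 CPM with FSH. The FSH rats lay inside the range of the other group. The log2 change was -0.15 ± 0.25 (95% interval -0.70 to 0.40; adjusted p = 0.759 by edgeR), and it was 0.02 without degarelix only replicate 1.

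The balance of Fads1 to Fads2 within a rat depends little on how libraries are scaled. On a log2 scale, with 0.5 CPM added to each gene, it was 4.09 ± 0.26 (SD, n = 6) without FSH and 3.20 ± 0.22 (SD, n = 5) with FSH. Values ran from 3.66 to 4.42 in the degarelix only rats and from 2.95 to 3.51 in the FSH rats, so the groups did not overlap. The difference of -0.88 gave p = 0.00433 (0.00866 adjusted over the 2 ratios examined) by exact permutation of the rats over all 462 splits, two-sided. The smallest p that these splits can give is 0.00216. With each library left out in turn the difference lay between -0.97 and -0.82 and the adjusted p between 0.00952 and 0.0159. Because the groups did not overlap, these p could only lie at or next to the smallest possible, so they do not measure stability. Fads1, already called lower in the same rats, is the numerator of this ratio. An Elovl5 to Elovl6 ratio had also been planned and was not computed, because Elovl6 was at or near 0.

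**Figure D2:**
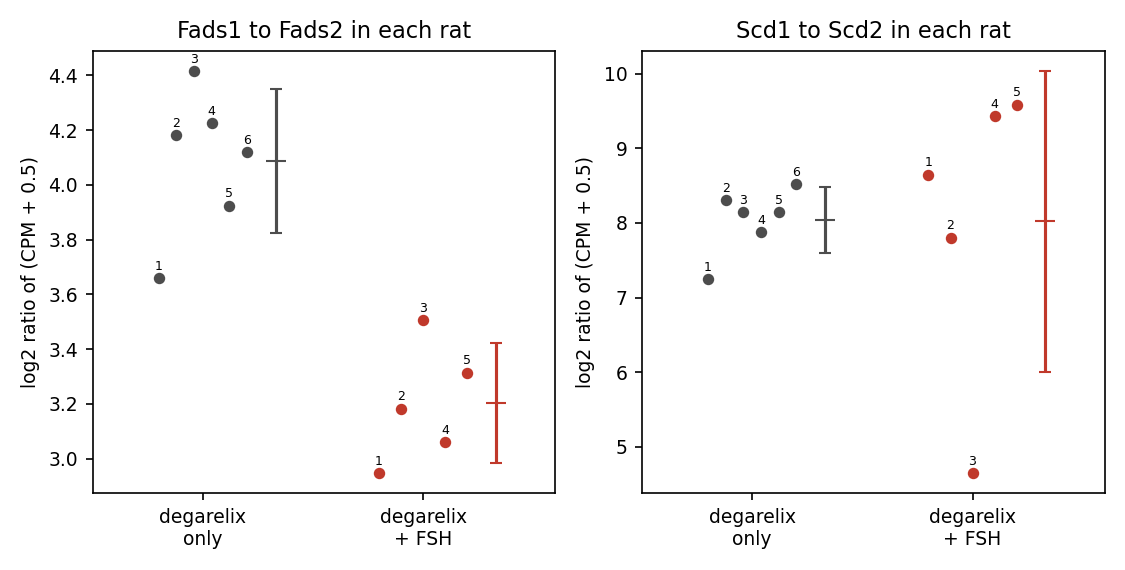
Log2 ratio of Fads1 to Fads2 (left) and of Scd1 to Scd2 (right) in each rat, from CPM with 0.5 added; axes do not start at 0, numbers are replicate numbers, and bars are mean and SD. The Fads1 to Fads2 ratio is at or above 3.66 in the degarelix only rats and at or below 3.51 in the FSH rats, while FSH replicate 3 lies far below the rest in the Scd1 to Scd2 ratio.

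Fads3 is a relative of both genes in the same cluster, known for a double bond it places in sphingoid bases. It was the steadiest of the 5 desaturases, with 268 to 399 CPM without FSH (median 306) and 219 to 317 CPM with FSH (median 287). The groups overlapped over most of their range. The log2 change was -0.19 ± 0.12 (95% interval -0.45 to 0.07; adjusted p = 0.360 by edgeR).

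Scd1 took a large share of each library. It held 6.19% of all counts in degarelix only replicate 1 (95% Wilson interval 6.18% to 6.20%) and 0.437% in degarelix only replicate 4 (0.434% to 0.440%), the ends of the range over the 11 rats. Its level was 67930, 41254, 34824, 4279, 60755 and 11963 CPM without FSH, and 29984, 6441, 12020, 17171 and 26220 CPM with FSH. Degarelix only replicates 4 and 6 were as low as the lower FSH rats, and the other rats without FSH were above every FSH rat. The highest rat was thus 15.9 times the lowest, and both ends of this range were degarelix only rats. The means were 36834 ± 25460 CPM (SD, n = 6) and 18367 ± 9754 CPM (SD, n = 5). The log2 change of -1.004 ± 0.62 (95% interval -2.37 to 0.36) is as large as that of Fads1 and did not pass the threshold (adjusted p = 0.357 by edgeR), and it ranged from -1.25 to -0.74 with 1 library left out.

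Scd2, the paralog of Scd1 best known from brain and from developing tissue, was at 446, 130, 123, 17.7, 214 and 32.1 CPM without FSH and at 74.3, 28.3, 478, 24.4 and 33.7 CPM with FSH. FSH replicate 3 was the highest of all 11 rats, at 11.9 times the mean of the other 4 FSH rats (40.2 ± 23.0 CPM, SD). The log2 change was -0.33 ± 0.95 over all rats (95% interval -2.42 to 1.76; adjusted p = 0.867 by edgeR), -1.996 without FSH replicate 3 (adjusted p = 0.199) and 0.30 without degarelix only replicate 1 (adjusted p = 0.893). Its direction and size therefore rest on single rats. That FSH library is also the one with Schwann cell markers at 1846 CPM; their part in the Scd2 value was not tested.

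Outside that library the 2 stearoyl-CoA desaturases varied together from rat to rat. Over all 11 rats the log2 CPM of Scd1 and Scd2 had a Pearson r of 0.64 (p = 0.0375, permutation test) and a Spearman rho of 0.70 (p = 0.0216). Without FSH replicate 3, left out after its values were seen, r was 0.88 (p = 0.00094) and rho 0.96. Their reads could be split between copies in ways that the counting method, not given in the sources used here, decides. The Scd1 to Scd2 log2 ratio was 8.04 ± 0.44 (SD, n = 6) without FSH and 8.02 ± 2.01 (SD, n = 5) with FSH (difference -0.02, exact permutation p = 0.991), and FSH replicate 3 alone lay at 4.65 where the other FSH rats lay at 7.80 to 9.58. Without it the difference was 0.82 (adjusted p = 0.0810, exact permutation test).

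**Figure D3:**
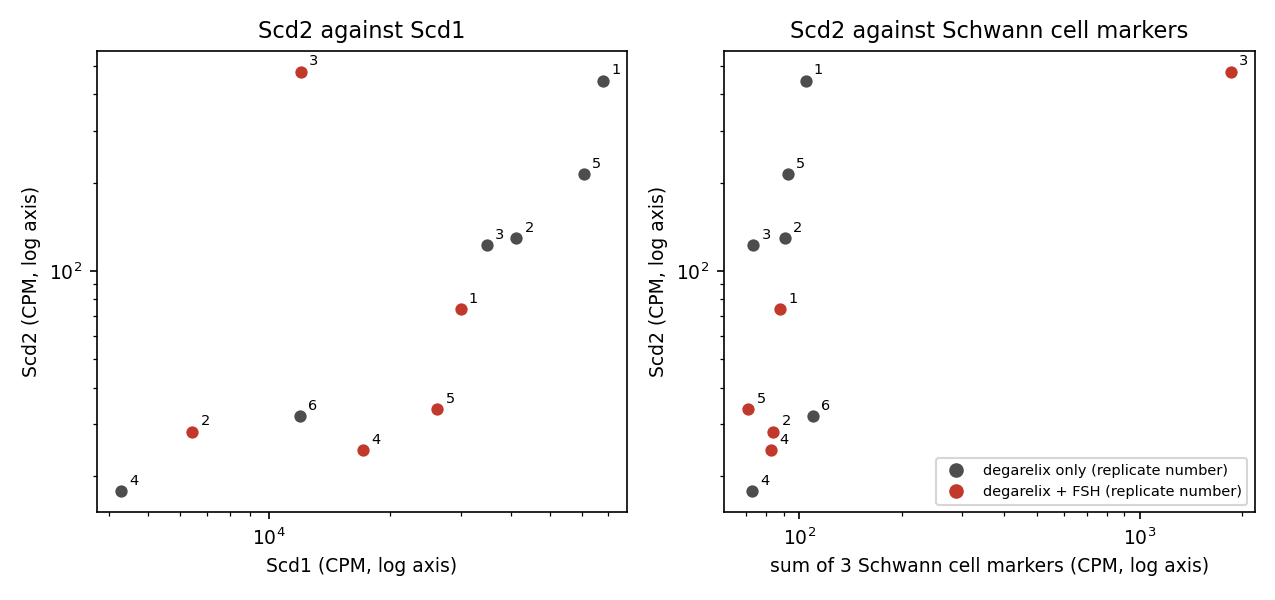
Scd2 level in each rat against Scd1 (left) and against the summed CPM of 3 Schwann cell markers (right), all on log axes; numbers are replicate numbers and colours the groups. The other 10 rats follow a rising line on the left, and FSH replicate 3 lies above it with 478 CPM of Scd2 at 12020 CPM of Scd1; on the right it lies alone at 1846 CPM of the markers.

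Elovl5 lengthens the polyunsaturated acids between the Fads2 and Fads1 steps. Its level was 290, 220, 201, 186, 252 and 300 CPM without FSH and 114, 146, 145, 185 and 149 CPM with FSH. Every FSH rat lay below every degarelix only rat, with a narrow gap between FSH replicate 4 and degarelix only replicate 4; this held for 1.8% of all genes tested and for no other member. The reverse, every FSH rat above every degarelix only rat, held for 2.54% of genes and for no tested member. The mean went from 242 ± 47.0 CPM (SD, n = 6) to 148 ± 25.2 CPM (SD, n = 5), a log2 change of -0.71 ± 0.15 (95% interval -1.03 to -0.39; adjusted p = 0.0367 by edgeR). FSH replicate 3, at 145 CPM, was near the mean of its group, and without it the log2 change was -0.70 (adjusted p = 0.0681). Of the 11 fits with a library left out, the 3 that lacked degarelix only replicate 3, degarelix only replicate 4 or FSH replicate 4 kept the call. The other 8 lost it, with adjusted p up to 0.0905.

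Elovl1 makes very long saturated and monounsaturated acids for sphingolipids and is active in most tissues. It was the least variable member, at 190 to 223 CPM without FSH (median 199.6) and 167 to 203 CPM with FSH (median 176). FSH replicate 3 was again the highest FSH rat, and 4 of the 5 FSH rats lay below every rat without FSH. The log2 change was -0.17 ± 0.07 (95% interval -0.32 to -0.03; unadjusted p = 0.0241 and adjusted p = 0.161 by edgeR), and it was -0.22 without FSH replicate 3 (adjusted p = 0.106).

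Elovl7, an elongase of long saturated acids, had 8 to 63 counts per library, the fewest of the members tested. Its level was 0.647, 0.676, 0.788, 0.782, 1.11 and 0.390 CPM without FSH and 1.62, 0.987, 4.68, 1.00 and 1.21 CPM with FSH. FSH replicate 3 stood 3.88 times above the mean of the other FSH rats, and degarelix only replicate 5 lay above 2 of the FSH rats. The log2 change of 1.35 ± 0.43 (95% interval 0.41 to 2.29) did not pass the threshold (adjusted p = 0.105 by edgeR). Without FSH replicate 3 it was 0.73 (adjusted p = 0.173), and the part of the Schwann cell markers, which are high in that library, was not tested.

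Elovl3 and Elovl6 gave almost no counts. Elovl3, known from brown fat and skin, had 2 counts in degarelix only replicate 1 and 0 in the other 10 libraries. Elovl6, the elongase that takes palmitic to stearic acid and a usual companion of Fasn in lipogenic tissue, had 1 count in degarelix only replicate 2 and 0 elsewhere. Both lie at or below the 3-count limit in all 11 libraries, so no fold is given. How the Elovl6 row was counted is not given in the sources used here, so its count is reported as listed and not as an absence of the transcript. The brown fat markers Ucp1, Cox7a1 and Cox8b also failed the filter on low counts, and the 4 brown or beige markers in the table, Cidea by far the highest of them, summed to 94.1 to 182 CPM in the degarelix only rats. In the FSH rats the sum was 136.6 CPM in FSH replicate 3 and 83.1 to 99.3 CPM in the other 4. Ucp1, the uncoupling protein of brown fat, was at 7.43 CPM and Cox8b at 7.87 CPM in FSH replicate 3, against at most 0.124 and 0.248 CPM in the other 10 libraries.

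**Figure D4:**
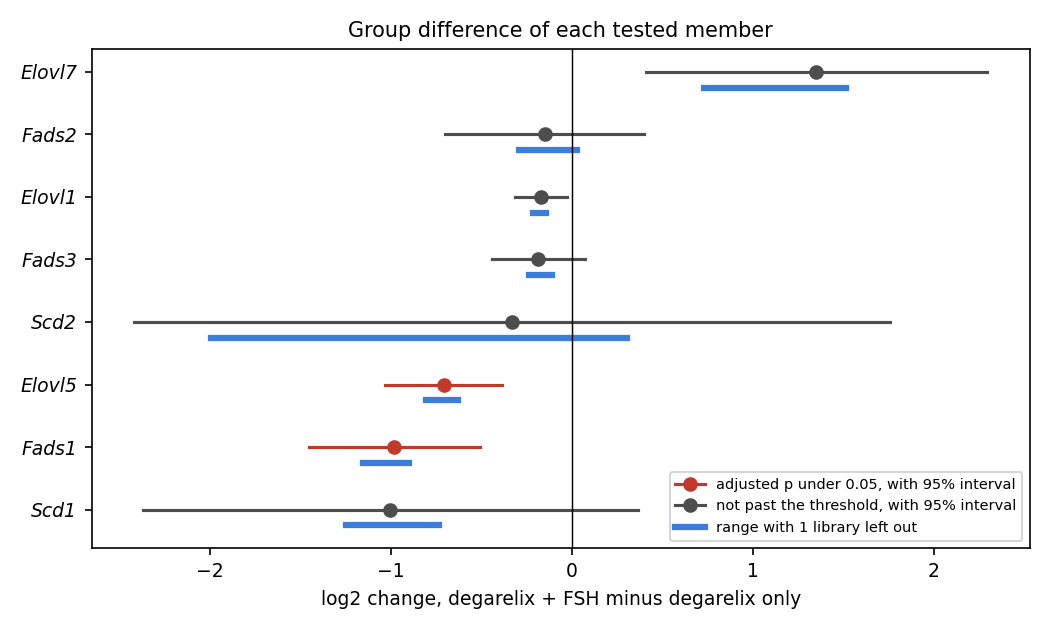
Log2 change (degarelix plus FSH minus degarelix only) of the 8 tested members with 95% intervals from edgeR's fit, and below each the range when 1 library is left out. Fads1 and Elovl5 are past the threshold with intervals below 0; Scd1 has a similar point estimate with an interval from -2.37 to 0.36, and the range for Scd2 crosses 0.

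The members were also set against 2 other genes from rat to rat, both chosen with earlier results of these data known. Fasn was taken to stand for fatty acid synthesis and Insig1, itself a sterol-regulated gene, for the sterol-regulated set, and each of the 8 tested members was set against both on log2 CPM over the 11 rats (16 relations, permutation tests, two-sided, adjusted over the 16). Scd1 followed Fasn closely (r = 0.96, rho = 0.95, permutation adjusted p = 0.00048), and r was 0.93 without the 2 rats farthest from the median of Fasn. It stayed at 0.97 with group means removed and at 0.99 within the 6 degarelix only rats (adjusted p = 0.0148, exact permutation test). With Insig1 its r was 0.50 (rho = 0.58, permutation adjusted p = 0.190).

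Over all 11 rats, the r of Fads1 with Insig1 was 0.90 (rho = 0.95, permutation adjusted p = 0.00256), or 0.88 without the 2 rats farthest from the median of Insig1, and with Fasn it was 0.71 (rho = 0.72, adjusted p = 0.0513). Insig1 and Fads1 both fell with FSH. With group means removed, r was 0.69 with Insig1 (adjusted p = 0.0949) and 0.63 with Fasn (adjusted p = 0.136, permutation tests). Within the 6 degarelix only rats, r was 0.73 for Insig1 (adjusted p = 0.169) and 0.92 for Fasn (adjusted p = 0.0861), neither past the threshold in an exact permutation test. These r stood in the reverse order of those over all rats. By rho the order was the same as over all rats, with 0.89 for Insig1 and 0.71 for Fasn. Elovl5 had an r of 0.74 with Insig1 over all rats (permutation adjusted p = 0.0349) and a rho of 0.72 (adjusted p = 0.0517). Its r was 0.83 without the 2 farthest rats and 0.02 with group means removed, where each gene's difference between the groups no longer enters. Whether a member's relations to Fasn and to Insig1 differ from each other was not tested.

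Elovl1 had an r of 0.79 with Insig1 (rho = 0.79, permutation adjusted p = 0.0210), and 0.54 with group means removed (adjusted p = 0.160, permutation test). Without the 2 farthest rats this r was 0.71 (adjusted p = 0.150, exact permutation test over 9 rats). Fads2 had an r of 0.73 with Fasn (rho = 0.58, permutation adjusted p = 0.0349), which was 0.67 without the 2 farthest rats (adjusted p = 0.150, exact permutation test over 9 rats), so neither relation held at the threshold there. Within the 6 degarelix only rats, Fads2 (r = 0.99) and Scd2 (r = 0.98) followed Fasn past the threshold (adjusted p = 0.0148 for both, exact permutation test). Scd2 had an r of 0.61 with Fasn over all rats and 0.89 without FSH replicate 3. Fads3 had an r of -0.38 with Fasn over all rats (permutation adjusted p = 0.286) and -0.74 with group means removed (adjusted p = 0.0629). Elovl7 followed neither gene (r = -0.23 with Fasn and -0.48 with Insig1, permutation adjusted p = 0.578 and 0.190).

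**Figure D5:**
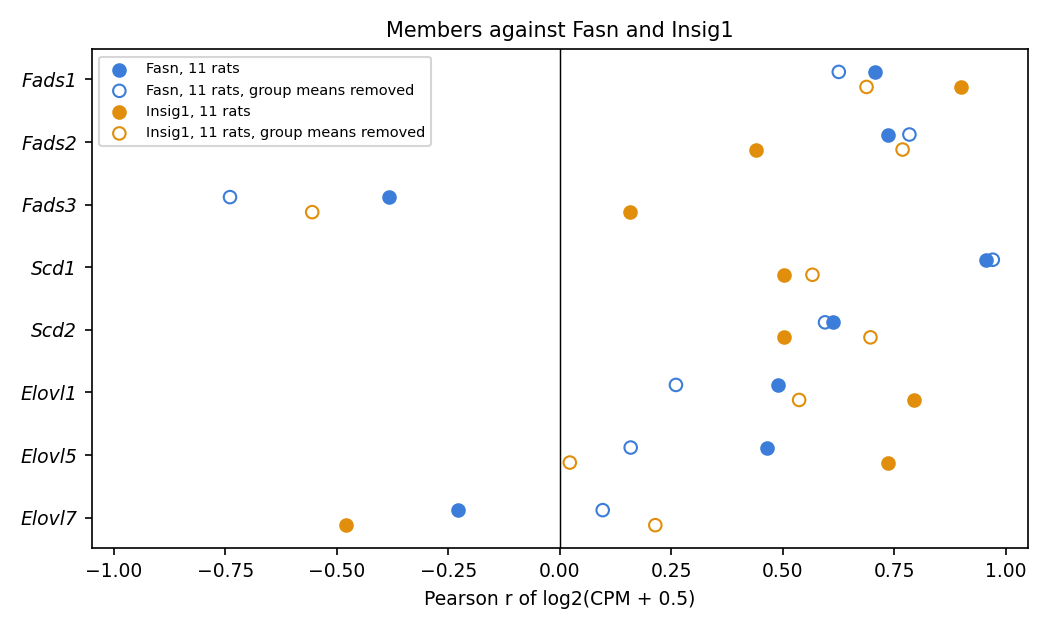
Pearson r of each tested member with Fasn (blue) and Insig1 (orange) on log2(CPM + 0.5); filled points use the 11 rats as they are and open points have the mean of each group removed. Scd1 lies at 0.96 and 0.97 with Fasn, Fads1 at 0.90 with Insig1, and the point of Elovl5 with Insig1 moves from 0.74 to 0.02 when group means are removed.

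As a description of likeness over the 11 rats, the genes with the highest r among 11922 candidates are named for each member; such values are high by selection and carry no p. For Fads1 these were the sterol synthesis enzyme Cyp51 (r = 0.94) and the kinase Mapkapk2 (0.93). For Scd1 they were Tkt, a transketolase of the pentose phosphate pathway (0.96), and Thrsp, a promoter of lipogenesis in fat and liver (0.96). For Elovl5 they were the histone methyltransferase Setd8 (0.98) and the potassium channel gene Kcnh2 (0.97). Fads2 and Scd2 shared a first gene, Eif2b2, a subunit of a translation initiation factor (0.94 and 0.92), followed by Fam104a (0.90) for Fads2 and the monoamine oxidase Maob (0.92) for Scd2. For Fads3 they were Ldb3 (0.96) and Dclk1 (0.93), and for Elovl1 Fbxw5 (0.96) and the folate enzyme Mthfd1 (0.95). For Elovl7 they were Epb41l3 (r = 0.96, rho = 0.86) and the neural adhesion gene L1cam (r = 0.95, rho = 0.85). Elovl7 was far higher in FSH replicate 3 than in any other rat, and these likenesses were not computed without that library.

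The other enzymes of the elongation cycle did not pass the threshold. Elongases carry out the first of 4 steps, and the rest fall to Hsd17b12, the Hacd dehydratases and Tecr. Of this list with Elovl2 and Elovl4, 7 of 8 genes were tested, 5 lay below 0 and none passed (median log2 change -0.12). Tecr, the reductase of the last step, went from 342 to 282 CPM (log2 change -0.28 ± 0.15, adjusted p = 0.284 by edgeR), and Hacd3 had -0.12 ± 0.07 (adjusted p = 0.287). The genes listed as electron carriers of desaturation gave a like picture, with 6 of 6 tested and none past the threshold (median -0.04). The cytochrome b5 gene Cyb5a had a log2 change of 0.06 ± 0.15 (adjusted p = 0.840 by edgeR). Cyb5b, a cytochrome b5, had -0.23 ± 0.08 (adjusted p = 0.120), and the reductase Cyb5r2 had 1.24 ± 0.57, from 2.07 ± 0.47 CPM to a spread-out 4.98 ± 6.35 CPM (SD; adjusted p = 0.226).

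Of the genes that supply saturated acids, 7 of 8 were tested, 6 lay below 0 and none passed, with a median log2 change of -1.24. The acetyl-CoA synthetase Acss2 (-0.78 ± 0.23, adjusted p = 0.0870 by edgeR) and the carboxylase isoform Acacb (0.48 ± 0.14, adjusted p = 0.0906) had the smallest p. Fasn itself was at 23387, 11240, 11643, 2134, 18105 and 4875 CPM without FSH and at 7057, 1719, 3291, 3339 and 9800 CPM with FSH, so degarelix only replicates 4 and 6 were low for it as they were for Scd1. Peroxisomal genes of the last step of polyunsaturated acid synthesis were tested for 4 of 5, with none past the threshold and a median of 0.03. Hsd17b4, an enzyme of the shortening step, had -0.08 ± 0.09 (adjusted p = 0.612 by edgeR). Of 5 other desaturases, the ceramide desaturase Degs1 was the only 1 tested (-0.16 ± 0.09, adjusted p = 0.286), while Scd4, Fads6 and Degs2 did not pass the filter on low counts.

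Among 9 tested genes that activate or use acyl-CoA (of 10 listed), 2 fell and none rose, where 1.07% of all genes tested fell and 1.21% rose, and the median was -0.33. These were the acyl-CoA synthetases Acsl3 (38.0 to 25.1 CPM, log2 change -0.60 ± 0.13, adjusted p = 0.0417 by edgeR) and Acsl6, which is known to favour polyunsaturated acids (1.98 to 1.06 CPM, -0.89 ± 0.18, adjusted p = 0.0367). With 1 library left out, the call of Acsl3 stood in 3 of 11 cases (adjusted p up to 0.101) and that of Acsl6 in 2 of 11 (up to 0.0904). Of 19 tested transcription regulators (of 20), 2 fell and none rose, against the same 1.07% and 1.21% of all genes, and the median was -0.14. These were Insig1, at 1202 to 2537 CPM in the degarelix only rats against 525 to 873 CPM in the FSH rats (log2 change -1.17 ± 0.19, adjusted p = 0.0159), which kept its call in 10 of 11 such cases, and Rxra, the partner of the liver X receptor (60.6 to 36.9 CPM, -0.72 ± 0.14, adjusted p = 0.0335), which kept it in 5 of 11 (up to 0.0893). Srebf1 had -0.27 ± 0.10 (adjusted p = 0.155) and Srebf2 -0.12 ± 0.10 (adjusted p = 0.492), and the ChREBP gene Mlxipl had -0.69 ± 0.36 (adjusted p = 0.282).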

How the data were processed

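RNA-seq libraries of retroperitoneal white fat from 11 rats were compared, 6 degarelix only and 5 degarelix plus FSH, grouped by title. The deposited table holds whole-number read counts per gene from the authors. STAR, edgeR, DESeq2 and the rat build rn6 are named in the submitters' processing notes, without roles or versions; counting program, annotation and strand setting: not given in the sources used here. Of 25275 rows, 1 (Pcmt1) was left out because a cell holds a letter; 12846 genes passed edgeR's filterByExpr.

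The counts were fitted in R 4.3.3 with edgeR 4.0.16 (TMM, robust quasi-likelihood test, group as the only term), and p-values were adjusted by Benjamini-Hochberg over all genes tested, with a threshold of 0.05. SE is the log2 change divided by the square root of F. Correlations and ratios used log2 of CPM plus 0.5, with permutation tests (100000 resamples, or exact). Elovl3 and Elovl6 did not pass the filter, which left 16 relations instead of the 20 planned, and 2 ratios instead of 3. DESeq2 1.42.0, limma 3.58.1 (voom), other scaling factors and filters, a replicate block and leaving out each library were alternatives. The scripts were tested on simulated data. Promoters are RefSeq windows on GRCr8, another build than the counts. Named genes are the members, Fasn and Insig1, and the 2 genes most like each member. Pathway genes past the threshold are also named, or otherwise the 2 smallest p of a list (1 for the peroxisomal genes). Cyb5a, Srebf1, Srebf2 and Mlxipl were added after their values were seen. The members, the lists, Fasn and Insig1 were chosen with earlier results of these data known. Of the symbols in the lists, 107 were found by symbol, 1 by a synonym, and 7 were not matched; 4 further genes are not reported here and enter no list. No pair of libraries was alike enough to be repeat deposits of 1 library.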

Additional observations from a re-analysis of the deposited data

Results flagged for a closer look

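Among the 30 sets of values examined for a single rat far from its group, 3 had one, and in each it was FSH replicate 3. The rule used flags about 1 in 20 sets of normally distributed values. Its rate for CPM values, which can be skewed, was not tested, and the 3 sets share 1 library. Its Scd2 level of 478 CPM lay far above the next FSH rat (74.3 CPM). Its Elovl7 level of 4.68 CPM lay above the next at 1.62 CPM. Its summed Schwann cell markers reached 1846 CPM against 88.0 CPM in the next. Of the marker sums, only those of Schwann cells, endothelial cells and adipocytes were examined in this way. The sum of mesothelium markers, not examined so, was 6.31 CPM in FSH replicate 3 and at most 0.864 CPM in the other FSH rats. It reached 5.21 CPM among the degarelix only rats. The part of nerve RNA in the Scd2 and Elovl7 values was not tested.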

How the results depend on the processing

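The edgeR fit called 155 genes higher and 137 lower; DESeq2 called 540 and 563, and limma-voom with quality weights 328 and 303. Leaving out 1 library gave 22 to 272 higher (lowest without FSH replicate 2) and 8 to 279 lower. Fads1 and Elovl5 stayed lower under all alternatives run, with calls that depended on the library left out: Fads1 ranged from -1.16 to -0.90, Elovl5 from -0.81 to -0.63, and 0 to 2 members were called lower. Fads2 ranged from -0.29 to 0.0247, Scd2 from -1.996 to 0.30, and the Scd1 to Scd2 ratio difference from -0.41 to 0.82. Without the low-count filter 1 member was lower, Fads1 having -0.99 (adjusted p = 0.0544 by edgeR). With 1 library left out, list medians ran from -0.27 to -0.0869 for elongation partners and from -0.24 to -0.10 for regulators. Genes called numbered 0 to 3 for acyl-CoA use and for regulators, and 0 to 1 for saturated acid supply. DESeq2 called 1 of 5 electron carriers, 2 of 7 supply genes and 6 of 19 regulators. It called 1103 of all 11668 genes it tested, where the edgeR fit called 292 of 12846.

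The labels do not say that the replicate numbers pair the rats. Deviations of same-numbered rats correlated at -0.11 to 0.13, and no FSH rat correlated best with its own number. These values do not settle whether rats were paired. With the replicate block, 10 genes were higher and 4 lower and 0 members were called. Fads1 was -1.03 (adjusted p = 0.0515) and Elovl5 -0.64 (adjusted p = 0.166) by edgeR. The Fads1 to Fads2 ratio difference was -0.88 (exact permutation p = 0.0625, the smallest that 5 pairs can give), and that of Scd1 to Scd2 was 0.0782.

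With 1 library left out, 1 to 4 relations passed with Fasn and 1 to 4 with Insig1; 1 and 0 passed with group means removed, 0 with Insig1 in the degarelix only rats alone, and 1 with Fasn without the 2 farthest rats. With group means removed r was 0.10 for Elovl7 with Fasn, -0.56 for Fads3 with Insig1 and 0.21 for Elovl7 with Insig1. In the degarelix only rats the first pair gave 0.31 and the second -0.61. Over all 11 rats, without group means removed, r of Fads3 with Insig1 was 0.16. Leaving out 1 library moved that value between -0.0096 and 0.35. Why results moved from setting to setting was not tested. Depth limits Elovl7 and Fads2 the most among tested members.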
